A study of Mus musculus with 8 samples.

Results

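The 10 genes described here, *Acta2*, *Actg2*, *Myh11*, *Mylk*, *Tagln*, *Cnn1*, *Smtn*, *Lmod1*, *Des* and *Pln*, encode parts of the contractile apparatus of smooth muscle. They were chosen by name, with no threshold on their levels, from the 46517 genes of the count table, and all 10 had a row there. Smooth muscle shortens when myosin filaments pull on actin filaments. Calcium in the cytosol binds calmodulin, which switches on myosin light chain kinase, and the phosphorylated light chain lets the myosin heads cycle on actin. In the liver, smooth muscle is known from the walls of hepatic artery branches, portal veins and central veins, while hepatic stellate cells (HSC), which store vitamin A along the sinusoids, are known to gain smooth muscle actin when they turn into myofibroblasts.

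The study profiled single cells of livers from adult male and female C57BL6/J mice and reporter strains by Smart-seq2, which copies polyadenylated RNA over its whole length. Mesenchymal cells were sorted into 384-well plates from mice with heterozygous reporters (*Pdgfrb*-GFP, *Pdgfra*-H2bGFP, *Acta2*-GFP, *Cspg4*-dsRED), singly or combined, or with an antibody against PDGFRα, endothelial cells by CD31, VE-cadherin or *Cldn5*-GFP, cholangiocytes by EPCAM, macrophages by CD68, and hepatocytes without selection. The series lists 8 samples, a male and a female pool for each of the mesenchymal, endothelial, immune and parenchymal classes, and each pool was taken as 1 replicate. No label names the mouse of a cell, so the error between pools is the difference between male and female cells, not between animals. Because some mesenchymal cells were sorted on *Acta2*-GFP, whose transgene carries the promoter of a gene described here, the numbers of *Acta2*-positive cells reflect the sort.

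The populations were the clusters given with the data. Vascular smooth muscle cells (SMC) were #m2c (arterial; 127 male and 109 female cells), #m8c (portal vein; 60 and 12), #m9c (venous; 29 and 10) and #m15c (large veins; 7 and 26). Cluster #m5c (66 and 21) is called SLC here, because the study assumed, without settling it, that it holds the second layer cells of vein walls. The SMC were set beside SLC, the HSC of the liver capsule, #m3c (91 and 22), the other HSC, #m7c (68 male cells), and the fibroblasts #m1 (88 and 93), #m4 (89 and 9), #m8 (156 male cells) and #m10 (126 male cells). Names ending in c are clusters of the finer setting, so #m8c (SMC) and #m8 (fibroblasts) are different populations. A pool with under 5 cells of a population was left out, which removed the 4 female cells of #m7c. Counts of a population were summed within a pool and expressed as CPM, the standard unit that scales a gene's count to the total count of its sum.

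Total counts per cell ran from 47063 to 1128421, and the 22 plates each held cells of 1 sex. In the male #m15c pool 1 of 7 cells held 832407 of the 1634619 counts, so its sums lean on that cell. The median cell of this pool was at 8455 CPM of *Acta2* and 237.5 CPM of *Smtn*, against 5661 and 1211 CPM in the sum. All female mesenchymal cells came from 1 plate, on which 157 of 344 cells (45.6%) were SMC, against 6.05% to 24.2% on the male plates that held SMC. On this female plate the 182 mesenchymal cells that were not SMC had counts for a median of 10 of the 10 genes, and the 5 cells of other classes had counts for all 10. On the male plates with SMC the median for mesenchymal cells that were not SMC lay between 4 and 8 genes. Levels are therefore given for each pool, and the part of this plate in the female levels outside SMC was not tested. In summed counts, fewer cells with a gene and less RNA per cell cannot be told apart. No cell name occurred more than once (0 repeats).

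The cluster names were checked against markers of other cell types. Summed over 8 HSC markers, SMC had 938 to 5800 CPM and HSC 5230 to 15900 CPM, so the male #m9c sum overlapped the HSC range. Summed over 8 fibroblast markers, the range was 3022 to 4586 CPM in #m2c, 9078 to 14920 CPM in the other SMC and 14450 to 21750 CPM in HSC. The 9 mural and pericyte markers did not set SMC apart from HSC as a sum, with 1864 to 9541 CPM in SMC and 3039 to 5476 CPM in HSC. The 4 endothelial markers summed to at most 19.1 CPM in any SMC sum, the 4 cholangiocyte markers to at most 10.8 CPM and the 4 immune markers to at most 103 CPM. The 5 hepatocyte markers summed to 219 to 335 CPM in male and to 424 to 811 CPM in female SMC sums, and their part in other results was not tested.

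Smooth muscle genes are textbook targets of serum response factor, which binds the CArG box, a pair of C, a run of A and T, and a pair of G. RefSeq windows (GRCm38.p6) were at hand for 7 of the 10 genes, and the 250 bases before the start were searched on both strands. An exact CArG box was in 1.47% of 32851 such windows and a box with at most 1 G or C in its middle in 8.59%. Of the 7 windows, the one of *Acta2* held matches, both with 1 G or C, whose first letters lay 84 and 34 bases before the RefSeq start at 34255373. The GENCODE vM21 model of *Acta2* starts 217 bases further upstream, and its first exon, from 34255290 to 34255590, covers both boxes. They are shown, as the only matches in the 7 windows, on the minus strand at chr19:34255438-34255467 and chr19:34255388-34255417, with the boxes in capitals and 10 bases on each side.
Acta2 box 84 bases before the RefSeq start: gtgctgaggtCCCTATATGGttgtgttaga
Acta2 box 34 bases before the RefSeq start: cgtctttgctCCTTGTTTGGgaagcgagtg
*Des*, *Lmod1*, *Cnn1*, *Pln*, *Smtn* and *Mylk* had no match in this window, which says only that these letters were not there.

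In the GENCODE vM21 models on GRCm38, *Acta2* lies on chromosome 19 from 34241090 to 34255590 and *Actg2* on chromosome 6 from 83512905 to 83536265. The share of 50-base stretches of *Acta2* found in another gene was 0.326%, and *Actg2* shared none (0%), so reads of the 2 actins could be told apart. Exons of other genes on the opposite strand covered 67.9% of the exon bases of *Tagln*, 64.7% of *Pln* and 16.3% of *Smtn*. Whether counting used the strand is not given in the sources used here, which leaves the counts of these 3 genes less certain.

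**Figure D1:**
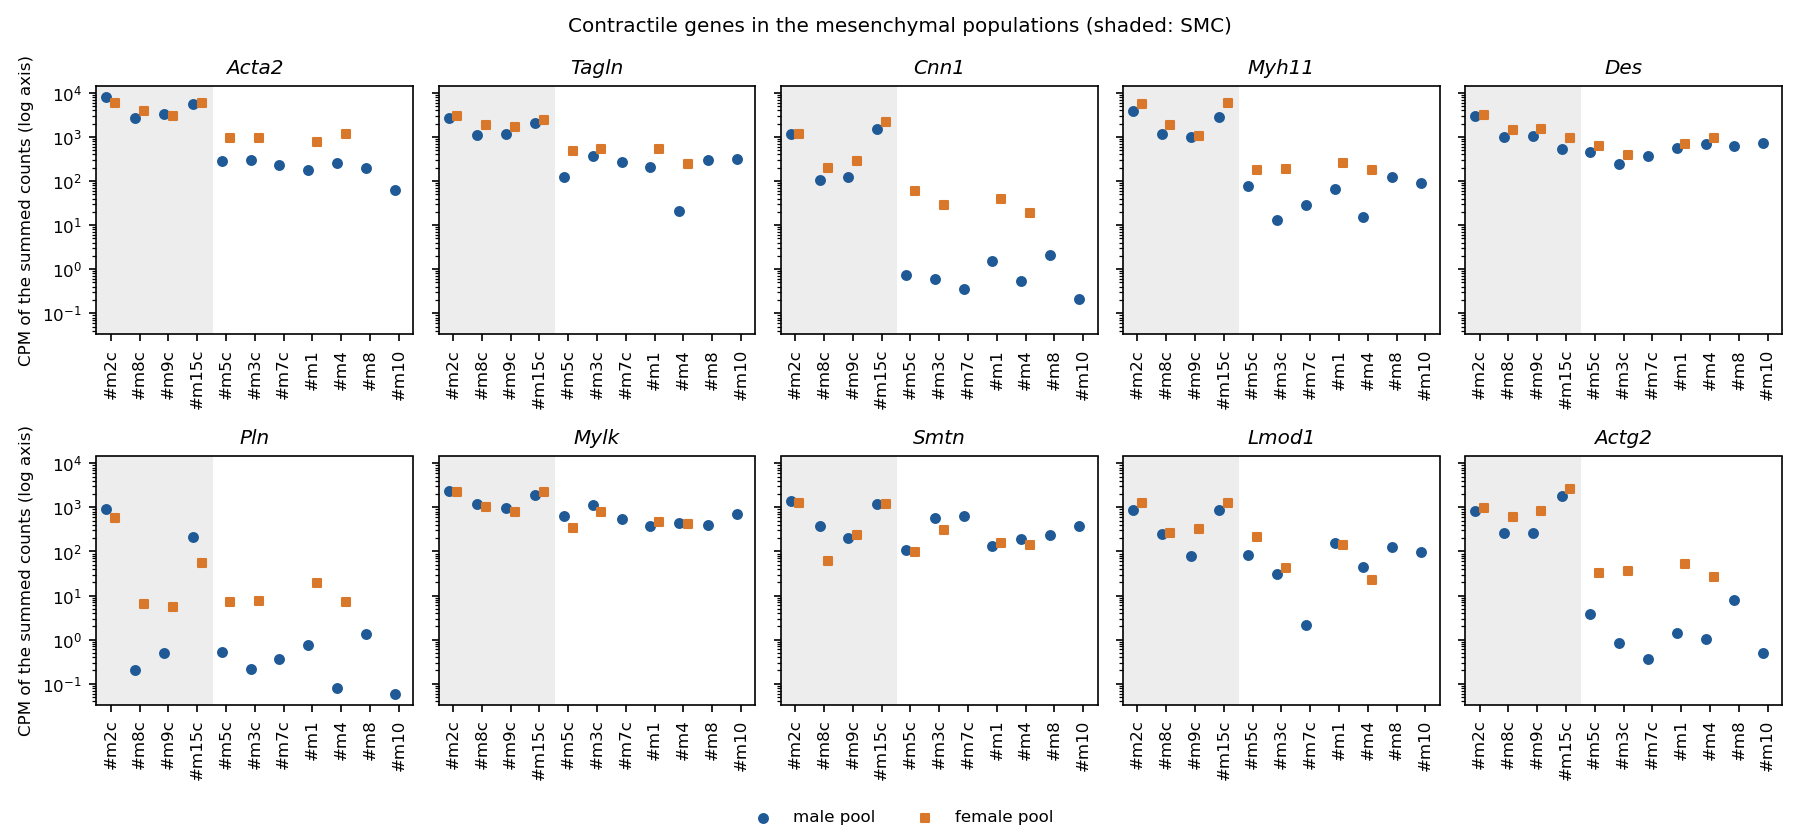
Levels of the 10 genes in 11 mesenchymal populations, 1 panel per gene, with CPM on a log axis and 1 point per pool of at least 5 cells (male and female); the 4 SMC populations are shaded. *Pln* points above 50 CPM lie in #m2c and #m15c, whereas *Des*, *Mylk* and *Smtn* points lie above 60 CPM in every population.

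Among the actins, every SMC pool was above every other mesenchymal pool. *Acta2*, the smooth muscle alpha actin of thin filaments, stood in the male and female pool at 7914 and 5895 CPM in #m2c, 5661 and 5951 in #m15c, 2688 and 3846 in #m8c, and 3309 and 3023 in #m9c. Outside SMC its male pools held 63.9 CPM (#m10) to 304 CPM (#m3c) and its female pools 752 CPM (#m1) to 1152 CPM (#m4), all of them below the lowest SMC pool. By the mean over cells #m1, at 481 CPM, was the highest of these male pools. The pool ranges of #m2c and #m15c overlapped, as did those of #m8c and #m9c.

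*Actg2*, the gamma actin known from gut and bladder muscle, had another order. It was highest in #m15c, at 1859 (male) and 2565 CPM (female), against 843 and 949 in #m2c, 269 and 621 in #m8c, and 263 and 840 in #m9c. The #m15c and #m2c ranges did not overlap, and those of #m8c and #m9c did. Outside SMC *Actg2* was between 0.360 CPM (#m7c) and 8.02 CPM (#m8) in male pools and between 26.6 CPM (#m4) and 53.1 CPM (#m1) in female pools.

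*Myh11*, the smooth muscle myosin heavy chain, was at 3923 and 5684 CPM in #m2c, 2873 and 5987 in #m15c, 1171 and 1887 in #m8c, and 972 and 1068 in #m9c, with the male pool given before the female pool throughout. Its male pools outside SMC held 13.3 CPM (#m3c) to 123 CPM (#m8) and its female pools 174 CPM (#m4) to 250 CPM (#m1). No pool outside SMC reached the lowest SMC pool.

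*Mylk*, the kinase that phosphorylates the myosin light chain, was much less restricted. It was at 2319 and 2213 CPM in #m2c, 1958 and 2286 in #m15c, 1199 and 1039 in #m8c, and 961 and 780 in #m9c. The capsular HSC #m3c, at 1131 and 775 CPM, overlapped both #m8c and #m9c. The other mesenchymal pools held 334 CPM (#m5c, female) to 697 CPM (#m10, male).

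The actin-binding genes fell into a restricted and a broad set. *Tagln* (transgelin, SM22) was at 2618 and 2923 CPM in #m2c, 2072 and 2384 in #m15c, 1109 and 1871 in #m8c, and 1171 and 1695 in #m9c, above the 21.4 CPM (#m4, male) to 545 CPM (#m3c, female) of all other pools. *Cnn1*, calponin 1, which damps the myosin ATPase, was at 1539 and 2125 CPM in #m15c, 1150 and 1168 in #m2c, 122 and 281 in #m9c, and 105 and 200 in #m8c. Its pools outside SMC held 0.210 CPM (#m10) to 2.09 CPM (#m8) in males and 19.1 CPM (#m4) to 58.5 CPM (#m5c) in females. *Cnn1* was thus lower in #m8c and #m9c than in #m2c and #m15c in either pool, with no overlap. The study itself described #m8c by low *Cnn1*, so for that cluster this is partly built in.

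*Lmod1*, leiomodin 1, which starts actin filaments, was at 860 and 1258 CPM in #m2c, 892 and 1227 in #m15c, 253 and 265 in #m8c, and 77.5 and 322 in #m9c. It was also counted in SLC at 82.2 and 218 CPM and in the fibroblasts #m1 at 154 and 143 CPM, #m8 at 126 CPM and #m10 at 99.8 CPM. These male sums were above the 77.5 CPM of #m9c. By the mean over cells male #m9c, at 113 CPM, was below #m1 (116 CPM) but above #m8 (102 CPM) and #m10 (99.3 CPM). *Lmod1* was lowest in #m7c at 2.16 CPM. *Smtn*, smoothelin, a marker of contractile smooth muscle, was at 1401 and 1236 CPM in #m2c and 1211 and 1167 in #m15c, but only at 380 and 61.6 in #m8c and 207 and 242 in #m9c. HSC held as much or more than those last 2 SMC populations, with 633 CPM in #m7c and 560 and 315 CPM in #m3c, where the #m3c and #m8c ranges overlapped. The lowest *Smtn* levels among the populations were in SLC, at 110 and 95.1 CPM, apart from the female #m8c pool. The neighbouring opposite-strand gene *Gm11946* had 327 CPM in #m2c and 171 CPM in #m7c over both pools, and its part in the *Smtn* counts was not tested.

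*Des*, desmin, the intermediate filament that ties contractile units together and also an established HSC marker in rodents, was at 2936 and 3079 CPM in #m2c, 1072 and 1488 in #m9c, 1013 and 1405 in #m8c, and 520 and 947 in #m15c. The large-vein SMC therefore overlapped the fibroblasts, which ran from 562 CPM (#m1, male) to 928 CPM (#m4, female). HSC held 374 CPM in #m7c and 241 and 388 CPM in #m3c, the lowest levels of the 11 populations.

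*Pln*, phospholamban, the inhibitor of the calcium pump that refills the sarcoplasmic reticulum, was at 908 and 566 CPM in #m2c. The male #m15c pool held 217 CPM and the female pool 54.4 CPM, and all 355 male counts lay in 1 of 7 cells, while 2 of 26 female cells had 20 counts or more and the median female cell was at 9.53 CPM. Every other male pool was at or below 1.36 CPM, and other female pools were at 5.42 CPM (#m9c) to 19.6 CPM (#m1). In #m8c and #m9c *Pln* was thus no higher than in the fibroblasts #m1 of the same pool.

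Compared per length, as CPM per kb of exon, *Acta2* was first in all SMC pools. In #m2c it made up 43.7% (male) and 34.6% (female) of the sum over the 10 genes, at 3604 and 2684 CPM per kb, followed by *Tagln* at 1317 and 1470 and *Des* at 782 and 820 CPM per kb. In #m15c *Actg2* came next after *Acta2*, at 1194 and 1647 CPM per kb, or 18% and 20.2% of the sum, and *Des* held 2.08% and 3.09%. *Mylk*, whose transcript is the longest of the set at 11.3 kb of exon, had 206 and 197 CPM per kb in #m2c. In #m7c *Smtn* was first, at 145 CPM per kb, and *Des* was first in the male pools of the 4 fibroblast populations. Dividing by length changed the rank of 3 to 9 of the 10 genes in a pool.

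By the fitted differences, SMC and HSC differed most in *Actg2*, *Cnn1*, *Lmod1* and *Myh11*, and did not differ detectably in *Smtn*. The comparison asks which contractile genes separate muscle cells from stellate cells, and set the mean of #m2c, #m8c, #m9c and #m15c against that of #m3c and #m7c with the quasi-likelihood test of edgeR over 19 pool sums. *Acta2*, *Tagln* and *Des* were used to name mural clusters and carry no test. The clusters were made from the same cells, so a difference in the other genes is partly built in as well. This holds above all for *Cnn1* and *Pln*, which name the arterial cluster, one of the 4 SMC clusters, so the counts are also given without them. A gene was called at an adjusted p below 0.05 and a log2 difference of at least 1. Of the 7 genes tested, 5 were called higher in SMC, where 0.639% of 21133 genes were called higher and 1.79% lower. Without *Cnn1* and *Pln* the count was 4 of 5.

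The log2 difference of *Actg2* between SMC and HSC was 8.37 ± 1.76 (SE; edgeR adjusted p = 0.0119), that of *Cnn1* was 7.82 ± 1.90 (adjusted p = 0.0305), that of *Lmod1* 5.81 ± 0.66 (adjusted p = 3.4e-05) and that of *Myh11* 5.52 ± 0.96 (adjusted p = 0.00238). As means over the populations of each side, these 4 genes were more than an order of magnitude higher in SMC in each sex. Single populations could lie closer, as male *Lmod1* did at 77.5 CPM in #m9c and 30.4 CPM in #m3c. *Mylk* differed by 1.03 ± 0.25 (adjusted p = 0.0319), just past the limit, and its call was lost in 4 of 9 alternatives, over which the adjusted p ran from 0.0103 to 0.216, the latter on plate sums without the female plate. *Pln* had a difference of 4.75 ± 1.78 (adjusted p = 0.244), with its counts in #m2c and #m15c, and was called in 4 of 9 alternatives, over which the adjusted p ran from 8.66e-05 to 1. *Smtn* had 0.02 ± 0.40, with a 95% interval of -0.82 to 0.86, and its sign turned in 4 of 9 alternatives, which ran from -0.83 to 0.42. The untested differences were 3.61 ± 0.59 for *Acta2*, 2.44 ± 0.60 for *Tagln* and 2.01 ± 0.29 for *Des*. The median over the 7 tested genes was 5.52 on the log2 scale, against -0.05 over all genes.

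Within the male pool the log2 ratios of SMC over HSC were larger than within the female pool for most members. *Cnn1* had 8.954 in the male and 5.004 in the female pool, *Actg2* 8.98 and 5.06, *Myh11* 6.67 and 4.27, *Pln* 7.78 and 4.23, and *Acta2* 4.20 and 2.29. *Lmod1*, at 4.916 and 4.175, was below *Pln* in either pool, unlike in the fit. *Des*, at 2.17 and 2.15, and *Mylk*, at 0.93 and 1.03, were close in the pools, and *Smtn* was larger in the female pool, at 0.42 and 1.10. Female HSC were the cells of #m3c on the plate rich in SMC, and sex and plate cannot be told apart here.

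SMC exceeded fibroblasts in 6 of the 7 tested genes, and in 5 of 5 without *Cnn1* and *Pln*, where 0.856% of all genes were called higher and 2.41% lower. *Cnn1* differed by 7.30 ± 1.31 on the log2 scale (edgeR adjusted p = 0.00214), *Actg2* by 7.001 ± 1.16 (adjusted p = 0.000943) and *Myh11* by 4.33 ± 0.64 (adjusted p = 0.000273). The smaller differences were 2.38 ± 0.37 for *Lmod1* (adjusted p = 0.000573), 1.56 ± 0.20 for *Mylk* (adjusted p = 4.9e-05) and 1.23 ± 0.33 for *Smtn* (adjusted p = 0.0461). The call was lost in 5 of 9 alternatives for *Smtn*, in 3 for *Lmod1* and in 1 for *Cnn1*, with adjusted p of up to 0.706, 0.625 and 0.0524, and on plate sums without the female plate *Smtn* had 1.05 and *Lmod1* 1.37. *Pln*, at 4.46 ± 1.27 (adjusted p = 0.0601), was called with the pool as a block (4.42, adjusted p = 0.0315), and its adjusted p over the 9 alternatives ran from 9.32e-09 to 1. Without a test, *Acta2* differed by 4.09 ± 0.45 and *Tagln* by 2.80 ± 0.45, while *Des* differed by 0.91 ± 0.20. The median over the 7 genes was 4.33, against -0.18 over all genes. On plate sums it was 2.62 with the plate as a block and 1.84 without the female plate. The SMC sums are the same in the comparisons with HSC, fibroblasts and SLC, so these 3 comparisons are not independent of each other.

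Second layer cells are known from central veins, between the SMC and the sinusoids, and the comparison asks how far #m5c, their assumed cluster, carries the contractile genes. SLC were below SMC in *Myh11*, *Smtn* and *Mylk*, the 3 of 7 tested genes (3 of 5 without *Cnn1* and *Pln*) that were called lower, where 0.232% of all genes were called lower and 1.66% higher. *Myh11* was lower by 4.28 ± 0.94 on the log2 scale (difference -4.28, edgeR adjusted p = 0.0203), *Smtn* had a difference of -2.41 ± 0.53 (adjusted p = 0.0213) and *Mylk* one of -1.64 ± 0.30 (adjusted p = 0.00442). *Actg2*, at -5.59 ± 1.56 (adjusted p = 0.074), was called with the pool as a block (-6.42, adjusted p = 0.0185) and in 6 of the other 8 alternatives, with adjusted p from 2.13e-17 to 0.1. *Cnn1*, at -4.13 ± 1.59 (adjusted p = 0.232), *Lmod1*, at -1.74 ± 0.53 (adjusted p = 0.108), and *Pln*, at -3.05 ± 1.69 (adjusted p = 0.535), were not called here but were called lower in 4, 3 and 1 of 9 alternatives, over which their adjusted p ran from 1.36e-09 to 0.268, from 0.0165 to 0.34 and from 0.0294 to 1. The call of *Smtn* was lost in 4 of 9 alternatives and that of *Mylk* in 2, and on plate sums without the female plate *Mylk* had -0.89 (adjusted p = 0.294) and *Smtn* -2.44 (adjusted p = 0.134). Without a test, *Acta2* differed by -2.93 ± 0.61, *Tagln* by -2.71 ± 0.67 and *Des* by -1.36 ± 0.30. The median over the 7 genes was -3.05, against 0.15 over all genes.

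The female SLC pool was the higher one for most members, as it was in other populations of that plate. In #m5c *Acta2* stood at 286 (male) and 934 CPM (female), *Cnn1* at 0.728 and 58.5 CPM, *Myh11* at 78.2 and 175 CPM, and *Actg2* at 3.91 and 31.8 CPM. *Mylk*, at 636 and 334 CPM, and *Smtn*, at 110 and 95.1 CPM, went the other way. The log2 ratio of SLC over SMC for *Cnn1* was -8.72 within the male and -3.99 within the female pool, and for *Mylk* it was -1.34 and -2.24.

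**Figure D2:**
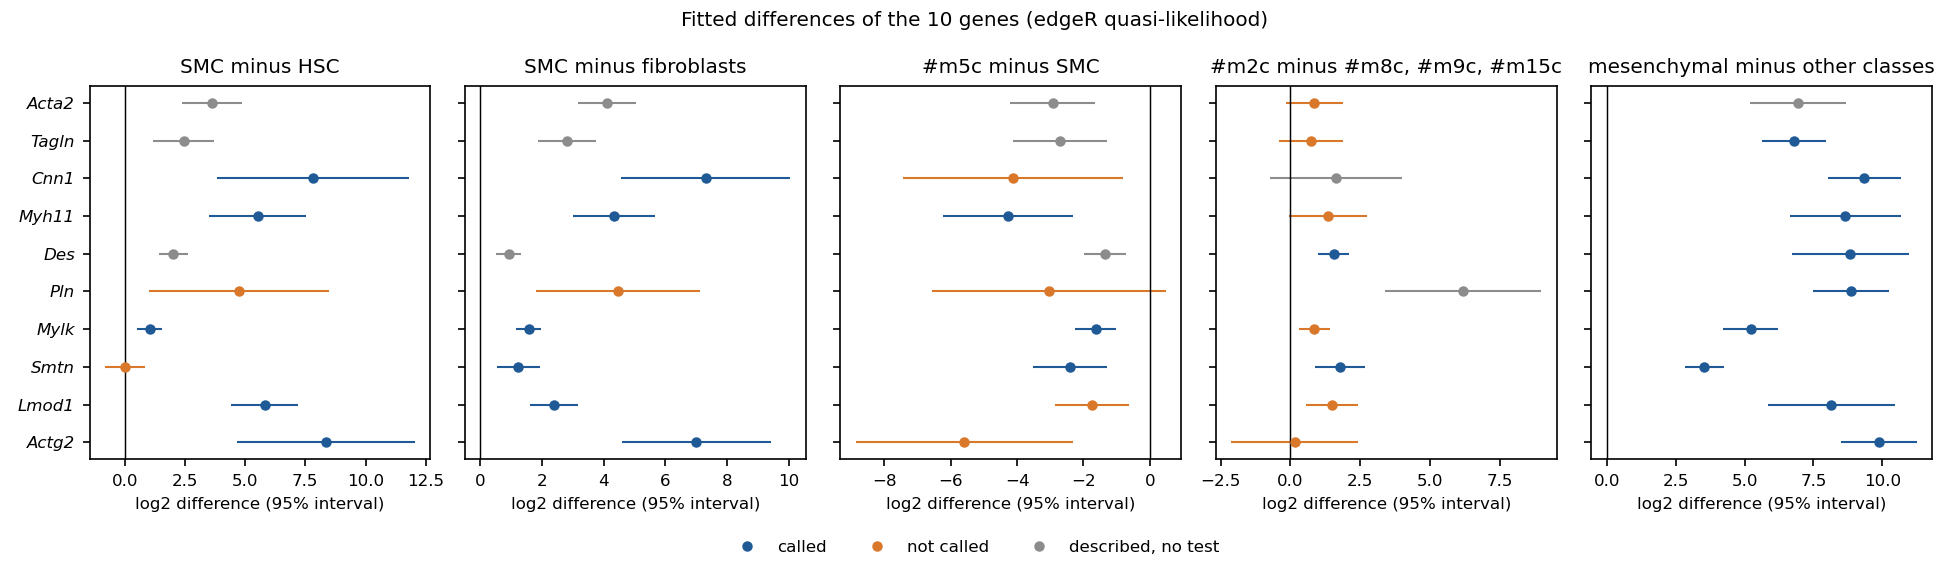
Fitted log2 differences of the 10 genes in 5 comparisons, 1 panel each, with bars for the 95% interval; the markers tell genes called, genes tested and not called, and genes described without a test apart. *Smtn* lies at 0.02 between SMC and HSC, while *Actg2* lies at 8.37.

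Arterial SMC were set against the venous populations #m8c, #m9c and #m15c to see which contractile genes differ by vessel type. *Des* and *Smtn* were higher in arterial SMC, the 2 of 8 tested genes that were called, where 0.989% of all genes were called higher and 0.781% lower. *Des* differed by 1.55 ± 0.26 on the log2 scale (edgeR adjusted p = 0.00286) and *Smtn* by 1.79 ± 0.43 (adjusted p = 0.0339). *Pln* and *Cnn1* were used to name the arterial cluster and carry no test, with fitted differences of 6.18 ± 1.33 and 1.62 ± 1.13. The ratios within a pool were smaller, at 3.63 in the male and 4.62 in the female pool for *Pln* and 0.97 and 0.43 for *Cnn1* on the log2 scale. The other 6 genes were not called, among them *Myh11* at 1.34 ± 0.67 (adjusted p = 0.442), *Acta2* at 0.86 ± 0.49 (adjusted p = 0.543) and *Actg2* at 0.16 ± 1.09, with a 95% interval of -2.12 to 2.44. The median over the 8 genes was 1.10, against 0.32 over all genes.

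Both calls depended on how cells were summed. On sums per plate, without the female plate, *Des* had 1.82 (adjusted p = 0.088) and *Smtn* 2.78 (adjusted p = 0.133), neither of them called. The level of *Smtn* in arterial SMC ran from 326 to 1837 CPM over 4 plates, and that of *Des* from 2290 to 3365 CPM. Within the pools the log2 ratio of *Des* was 1.76 in males and 1.27 in females, and that of *Smtn* 1.22 and 1.33, so either pool alone had the same direction.

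The mean over the venous populations joins unlike cells. #m15c was as rich as #m2c in *Acta2*, *Myh11*, *Mylk* and *Lmod1*, whose pool ranges overlapped, and above it in *Cnn1* and *Actg2*. It was below #m2c in *Des*, *Pln*, *Tagln* and *Smtn*, where the ranges did not overlap. The portal vein and venous SMC, #m8c and #m9c, were below #m2c in all 10 genes in either sex. Summed over the 10 genes, #m2c had 24870 and 24970 CPM, #m15c 18800 and 24690, #m8c 8187 and 11200, and #m9c 8155 and 9743 CPM.

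The same contrast could be read within plates that held more than 1 SMC population. Only 1 male plate held at least 5 cells of #m2c and of a venous population. On it, with 62 cells of #m2c, 10 of #m8c and 5 of #m9c, *Des* was at 3365, 1216 and 593 CPM in that order and *Smtn* at 1837, 7.98 and 8.93 CPM. For *Smtn* these were the extremes over plates, since #m8c reached 513 CPM and #m9c 609 CPM on other male plates and #m2c was at 326 CPM on another. *Pln* was at 576 CPM in #m2c and 1.60 CPM, or 2 counts, in #m8c, and #m9c had no count (0). *Actg2* was at 784, 282 and 596 CPM. *Cnn1* was at 1139, 1.60 and 98.2 CPM. On this plate all 5 genes were highest in arterial SMC. The female plate, the source of all female mesenchymal cells, held all 4 SMC populations, and there #m15c was above #m2c in *Actg2* (2565 against 949 CPM) and *Cnn1* (2125 against 1168 CPM), while *Des*, *Smtn* and *Pln* were highest in #m2c.

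**Figure D3:**
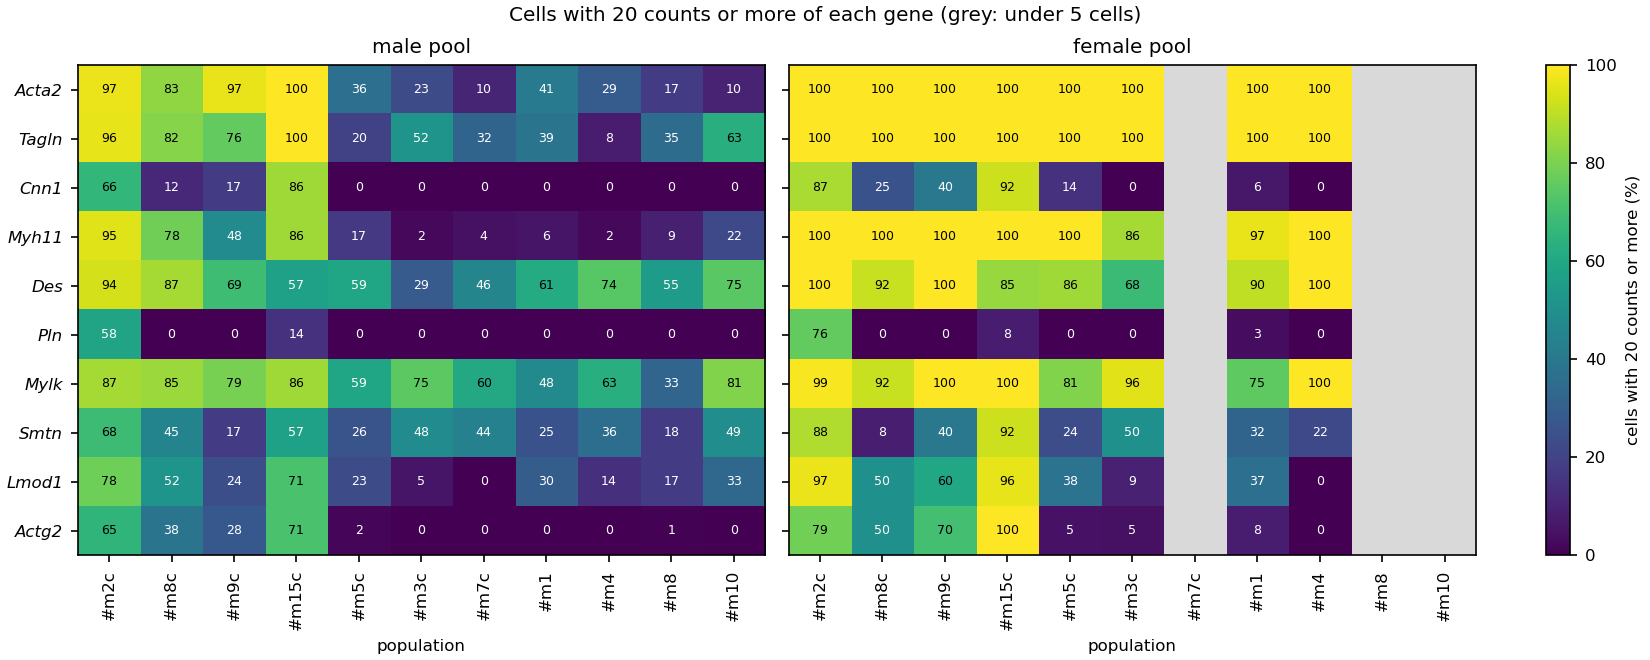
Share of cells with 20 counts or more of each gene (colour and number, in percent) in 11 mesenchymal populations, for the male and the female pool; grey columns had under 5 cells. *Pln* reached 58.3% and 76.1% in #m2c and at most 14.3% elsewhere.

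In single cells, a limit of 20 counts was used to count cells with a gene, because lower counts were common on the female plate. By this limit *Pln* was found in 157 of 236 arterial SMC (66.5%), in 3 of 33 cells of #m15c (9.09%), and in 0 of 72 cells of #m8c and 0 of 39 of #m9c. *Cnn1* was found in 66.1% of male and 87.2% of female cells of #m2c, in 85.7% and 92.3% of #m15c, in 17.2% and 40.0% of #m9c and in 11.7% and 25% of #m8c. A minority of the cells of #m8c and #m9c thus passed this limit for *Cnn1*, and the median male cell of either population was at 0 CPM. *Actg2* was found in 71.4% and 100% of #m15c, 65.4% and 78.9% of #m2c, 38.3% and 50% of #m8c, and 27.6% and 70.0% of #m9c. *Des* was found in 93.7% and 100% of #m2c and in 57.1% and 84.6% of #m15c.

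The count of cells with the whole set depended on depth and plate. With each cell thinned to 50000 counts, 140 of 236 cells of #m2c (59.3%) had at least 1 count of all 10 genes, with 52 of 127 (40.9%) in the male and 88 of 109 (80.7%) in the female pool. In #m15c 11 of 33 cells did, in #m8c 2 of 72 and in #m9c 0 of 39, while 4 of 87 cells of SLC, 1 of 111 of #m3c, 8 of 180 of #m1 and 1 of 98 of #m4 did, all of these female. Without thinning, 145 of the 182 mesenchymal cells on the female plate that were not SMC had all 10. The median number of genes was 9 in male and 10 in female cells of #m2c, 9 and 9 in #m15c, 7 and 8.5 in #m8c, and 6 and 8.5 in #m9c. Male SLC, HSC and fibroblasts had medians of 4 or 5 genes, and female SLC and capsular HSC a median of 9, again on the plate rich in SMC. Endothelial and parenchymal cells had a median of 1 gene and immune cells of 0 genes in either pool.

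How far levels of a pair of members went together across cells varied between pairs. Over the 45 gene pairs, the median Pearson r across the 236 cells of #m2c was 0.30, with a range of 0.09 to 0.73, the highest for *Acta2* and *Tagln*. The median was 0.33 in #m15c (-0.33 to 0.80), 0.31 in #m9c (-0.07 to 0.77) and 0.17 in #m8c (-0.16 to 0.63). Cells share plates and depth, so these are descriptions. *Pln* and *Cnn1*, which name the arterial cluster, were both counted in 186 of 236 cells, *Pln* alone in 13, *Cnn1* alone in 26 and neither in 11.

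Across the 19 sums the closest pairs were *Cnn1* and *Actg2* (r = 0.98), followed by *Acta2* with *Cnn1* and *Myh11* with *Actg2* (0.96 each), and the least alike were *Des* and *Smtn* (0.21). The genes of the table whose level most resembled the mean of the 10 members were *Tpm2* (r = 0.98), *Myl9* (0.95), *Tpm1* (0.95), *Flna* (0.95), *Myom1* (0.94), *Dstn* (0.94), *Inka2* (0.94), *Myl6* (0.93), *Kcnmb1* (0.93) and *Rrad* (0.92), among 14334 genes with at least 10 CPM in a sum. The tropomyosins *Tpm1* and *Tpm2* wind along actin filaments, *Myl9* and *Myl6* are light chains of myosin, and *Kcnmb1* is a subunit of the calcium-activated potassium channel of smooth muscle. The sums share pools and plates, and r is given without a test.

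The same comparisons were read on 25 further genes of the contractile apparatus and calcium handling. SMC exceeded HSC in 10 of 25, against 0.639% of all genes, with a median log2 difference of 1.20. *Kcnmb1* led with 7.42 ± 1.73 (edgeR adjusted p = 0.024), ahead of *Pdlim3*, a Z-disc and actinin-binding protein, at 6.70 ± 0.63 (adjusted p = 4.46e-06), *Cacna1c*, the L-type calcium channel, at 6.35 ± 1.33 (adjusted p = 0.0118), and *Synpo2* at 5.85 ± 0.93 (adjusted p = 0.000978). SMC exceeded fibroblasts in 15 of 25 (median 1.64; 0.856% of all genes), and SLC were below SMC in 8 of 25 (median -2.03; 0.232% of all genes), among them *Tpm2* at -2.76 ± 0.36 (adjusted p = 0.00019). Arterial SMC exceeded venous SMC in 2 of 25 (median 0.90; 0.989% of all genes), *Synm*, an intermediate filament protein that pairs with desmin, at 5.02 ± 1.14 (adjusted p = 0.0254), and *Ldb3* at 4.73 ± 1.15 (adjusted p = 0.0379).

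Of 10 regulators of smooth muscle genes, *Notch3* was used to name mural clusters and carries no test in contrasts with SMC, and 3 of the other 9 were called higher in SMC than in HSC, against 0.639% of all genes. *Myocd*, the coactivator myocardin that works with serum response factor, differed by 7.65 ± 1.20 (edgeR adjusted p = 0.000883), *Heyl*, a target of Notch signalling, by 2.99 ± 0.44 (adjusted p = 0.000466) and *Tgfb1i1* by 2.06 ± 0.34 (adjusted p = 0.00153). The untested *Notch3* had 4.46 ± 0.45. Against fibroblasts *Myocd*, at 5.13 ± 0.73 (adjusted p = 0.000204), *Heyl*, at 1.75 ± 0.30 (adjusted p = 0.00123), and *Tgfb1i1*, at 1.40 ± 0.24 (adjusted p = 0.00164), were also called higher, where 0.856% of all genes were. SLC were below SMC in *Tgfb1i1*, at -2.20 ± 0.38 (adjusted p = 0.00346), the 1 of 9 regulators called lower against 0.232% of all genes, and the untested *Notch3* had -1.94 ± 0.40. Arterial SMC exceeded venous SMC in *Klf4*, at 4.55 ± 1.15 (adjusted p = 0.0464), the 1 of 10 regulators called higher there against 0.989% of all genes.

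Markers of other mesenchymal cells moved with these contrasts. The study first defined HSC clusters by *Reln*, *Lrat* and *Hgf*, whose differences between SMC and HSC, -6.71, -2.81 and -3.23, are therefore given without a test, and 2 of the other 5 HSC markers were called lower in SMC, against 1.79% of all genes. SMC were also below HSC in 3 of 8 fibroblast markers, against the same 1.79% of all genes. They include *Pdgfra*, on whose reporter or protein some mesenchymal cells were sorted. Of the 8 mural markers other than *Notch3*, 4 were called higher in SMC than in HSC (0.639% of all genes), such as *Mcam* at 4.47 ± 0.69 (edgeR adjusted p = 0.000737), and 1 was called lower, *Abcc9*, a potassium channel subunit known from pericytes, at -2.67 ± 0.39 (adjusted p = 0.000445). *Abcc9* was also lower in arterial than in venous SMC (-2.39 ± 0.58, adjusted p = 0.0391) and higher in SLC than in SMC (2.11 ± 0.43, adjusted p = 0.0119). Over the 8 mural markers other than *Notch3*, the median difference of SLC from SMC was -2.55. *Abcc9* was the 1 called higher there, and 2 were called lower, against 1.66% and 0.232% of all genes. The 8 fibroblast markers had a median difference of -2.03 between SMC and fibroblasts. Arterial SMC were below venous SMC, where 0.781% of all genes were called lower, in 5 of 8 fibroblast markers, such as *Dcn* at -3.37 ± 0.30 (edgeR adjusted p = 6.12e-06), and in 3 of 8 HSC markers, such as *Lrat* at -5.90 ± 1.27 (adjusted p = 0.0174). SLC were above SMC, where 1.66% of all genes were called higher, in 6 of 8 fibroblast markers, such as *Dpt* at 3.30 ± 0.40 (adjusted p = 0.000124). The 6 include *Pdgfra*, at 3.17 ± 0.49, whose difference is partly built in by the sort. SLC also exceeded SMC in 3 of 8 HSC markers, but in 1 of 5 without *Reln*, *Lrat* and *Hgf*. The part of these differences in the contractile genes was not tested.

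Among the 4 cell classes the contractile genes were counted mostly in mesenchymal cells. All 9 tested genes were called higher there than in the mean of the other classes, where 9.47% of 24046 genes were called higher and 2.33% lower, with a median log2 difference of 8.65 against 0.02 over all genes. *Actg2* differed by 9.87 ± 0.60, *Cnn1* by 9.35 ± 0.58, *Pln* by 8.86 ± 0.61, *Des* by 8.84 ± 0.93, *Myh11* by 8.65 ± 0.88, *Lmod1* by 8.15 ± 1.01 and *Tagln* by 6.80 ± 0.50, and the edgeR adjusted p of the 9 genes ran from 0.00016 to 0.00179. *Smtn*, at 3.54 ± 0.31, and *Mylk*, at 5.22 ± 0.44, had the smallest differences. *Acta2*, on whose promoter some mesenchymal cells were sorted, had 6.94 ± 0.76 without a test. With that sort, and with classes labelled from the same cells, the differences of the 9 tested genes are partly built in as well. Of the further contractile and calcium genes 20 of 25 were called higher in mesenchymal cells, led by *Ldb3* at 9.38 ± 0.69 (adjusted p = 0.000299), and of the regulators 6 of 10, led by *Myocd* at 9.03 ± 1.18 (adjusted p = 0.0023).

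*Smtn* and *Mylk* were also counted in other classes. *Smtn* was at 406 and 541 CPM in the male and female mesenchymal pools and at 161 and 181 CPM in endothelial cells, and its levels were 22.6 and 13.95 CPM in immune and 17.95 and 28.8 CPM in parenchymal cells. *Mylk* was at 783 and 1095 CPM in mesenchymal, 43.5 and 33.9 CPM in endothelial and 55.4 and 203 CPM in parenchymal cells. *Acta2* was at 1250 and 2793 CPM in mesenchymal cells, 10.46 and 1.26 CPM in endothelial, 12.3 and 9.40 CPM in immune, and 25.8 and 126 CPM in parenchymal cells. Single cells held much of these low levels: 1 cholangiocyte had 806 of the 809 *Acta2* counts of the female parenchymal pool, which was at 0.475 CPM without it, and 1 lymphatic endothelial cell had 1215 of the 1811 counts of the male endothelial pool, which was at 3.44 CPM without it.

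**Figure D4:**
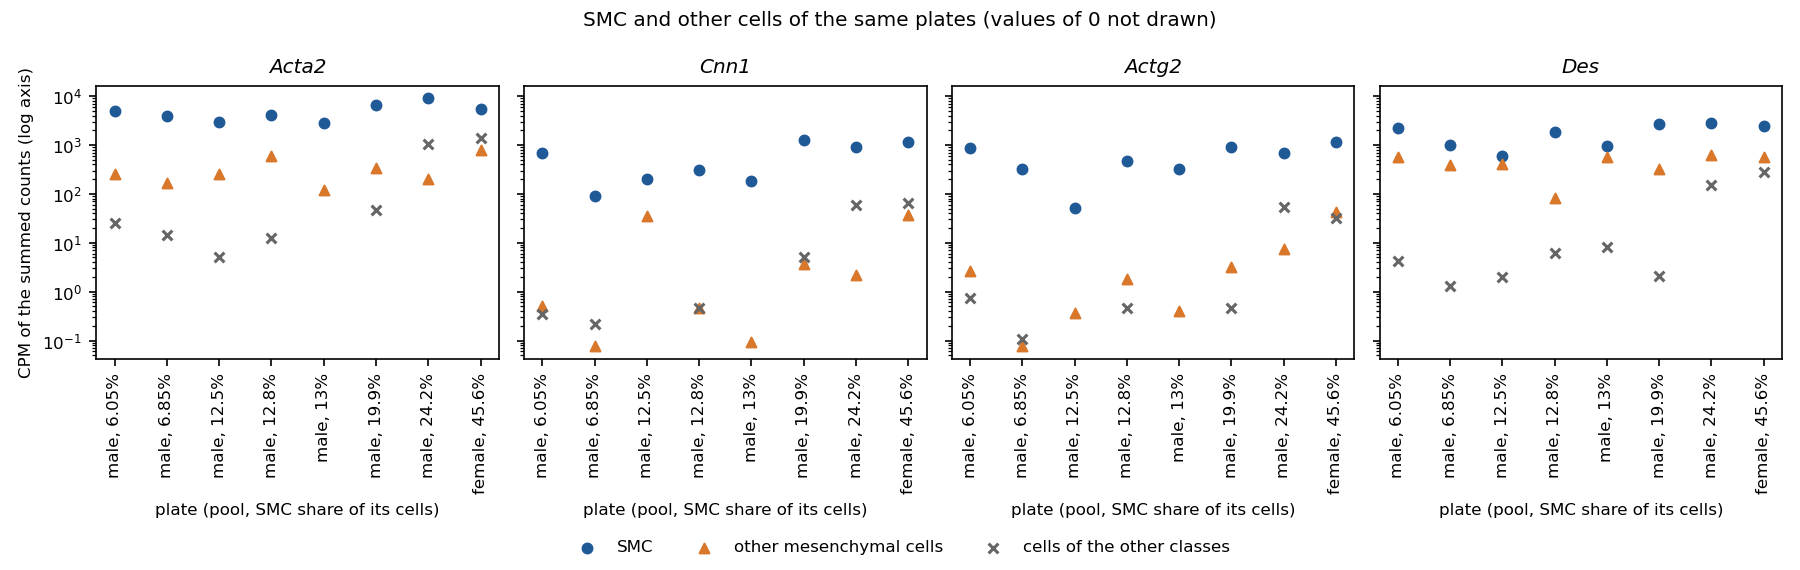
Levels of *Acta2*, *Cnn1*, *Actg2* and *Des* on the 8 plates with SMC, as CPM of summed counts on a log axis, with plates named by pool and by the share of SMC among their cells; circles are SMC, triangles other mesenchymal cells and crosses cells of the other classes, and values of 0 are not drawn. On the female plate, at 45.6% SMC, *Cnn1* was at 37.2 CPM in the other mesenchymal cells, with counts in 181 of 182 cells, while the 35.3 CPM of 1 male plate came from 3 of 38 cells, of which 1 had 20 counts or more.

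Low counts outside the mesenchyme differed between plates with and without SMC. On the 8 plates with SMC, 71.1% of 574 cells of other classes (95% exact interval 67.2% to 74.8%) had a count of *Acta2* and 9.76% (7.45% to 12.5%) a count of *Cnn1*. On the 14 plates without SMC these shares were 7.97% (6.69% to 9.42%) and 0.253% (0.069% to 0.647%) of 1580 cells. *Lmod1* and *Myh11* differed in the same direction, with 13.6% against 0.19% and 28.7% against 1.27%. *Smtn* went the other way, with 30.8% on plates with SMC and 40.7% on plates without. The intervals cover counting error only, the classes were not equally spread over the plates, and the cause was not tested.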

How the data were processed

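Smart-seq2 counts of 3491 cells were used as the authors deposited them, whole-number counts per gene and cell, with the authors' cluster and class labels. The authors had demultiplexed, mapped and counted the reads and removed low-quality cells, putative doublets and cells with signs of contamination. The submitters' processing notes name bcl2fastq, Bowtie, Bowtie2, featureCounts, Subread and Seurat and the builds GRCm38 and mm10, and whether counting used the strand is not given in the sources used here. Spike-in rows (92) were left out of totals, and no row without a gene name was found (0).

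Counts were summed per population and pool (at least 5 cells) and tested with the quasi-likelihood test of edgeR 4.0.16 in R 4.3.3, with TMM scaling, its filter on low counts and Benjamini-Hochberg adjustment over all genes tested. Alternatives were DESeq2 1.42.0, no filter, sums of at least 10 or 3 cells, a block for the pool, sums per plate, thinning of cells to 50000 counts, single pools and means over cells. Sums per plate with the plate as a block or without the female plate were added after seeing the data. The procedure was tested on simulated data.

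Sums of a pool share its sex, and the female mesenchymal sums also share 1 plate, while male mesenchymal cells came from 9 plates. Pools therefore pair the sums: deviations of same-pool sums correlated at -0.003 to 0.16 (median 0.108, 8 populations) and at 0.086 to 0.11 over the 4 classes. The 10 genes and all lists were chosen with earlier results of these data known. All 10 genes are named, with up to 4 called genes of largest difference per list and comparison, and the 10 genes most like the mean of the members by Pearson r over log2(CPM + 1). Populations are named as in the study. Tests of *Notch3*, *Reln*, *Lrat* and *Hgf*, which the study used for such names, were set aside after seeing the data in contrasts of the cells they name. Separate tables per class, which repeat the same cells, were not used.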

Additional observations from a re-analysis of the deposited data

Results flagged for a closer look

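*Actg2* was the only tested gene whose log2 ratio of arterial over venous SMC had opposite signs in the 2 pools, at 0.082 in the male and -0.499 in the female pool. The difference between the pools was not tested, since each pool gives 1 value.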

How the results depend on the processing

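Directions and calls of single genes mostly stayed: of 339 values of a gene under the 9 refitted alternatives, 281 kept direction and call, 27 gained and 27 lost the call, and 4 changed sign. The 4 are *Smtn* between SMC and HSC, at -0.13 with thinned cells, -0.37 on sums per plate, -0.074 with the plate as a block and -0.83 without the female plate, the cause of which was not tested. Among values without a test, *Actg2* in arterial against venous SMC, fitted at 0.16, was at -0.50 within the female pool and -0.11 by the mean over cells. The arterial against venous count of 2 became 4 without the filter, 1 with sums of at least 10 and 1 with at least 3 cells, and 0 on sums per plate, with the plate as a block and without the female plate, where edgeR gave 2, 5 and 6 genes at an unadjusted p under 0.05 and DESeq2 called 2 on the pool sums. The count for SLC of 3 became 6 by DESeq2, 7 without the filter and 5 with thinned cells, and 2 both on sums per plate and with sums of at least 3 cells, and the 6 for SMC against fibroblasts became 3 on sums per plate. With the pool as a block, counts were 5, 2, 4, 7 and 9 for SMC against HSC, arterial against venous, SLC, fibroblasts and the classes. Leaving out a pool gives values without a test, and the median log2 difference was then at its lowest 0.81 for arterial against venous SMC, -4.82 to -3.99 for SLC and 6.09 to 7.19 for the classes. Means over cells gave 0.89, -4.26 and 6.42. For arterial against venous SMC the median was 1.30 with thinned cells, 1.61 with the plate as a block and 1.72 without the female plate. For SLC it was -2.20 with thinned cells, -4.12 with the pool as a block and -2.44 without the female plate. For fibroblasts it was 2.62 with the plate as a block and 1.84 without the female plate, and for the classes 7.54 with the plate as a block.

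Counts over all genes moved more. Between SMC and HSC 135 higher and 378 lower genes became 692 and 635 with DESeq2, 248 and 611 without the filter, 295 and 131 per plate, 157 and 122 with the plate as a block, and 198 and 327 without the female plate. Between arterial and venous SMC 209 and 165 became 517 and 514 with DESeq2, 627 and 259 without the filter, 129 and 193 with at least 10 cells, 8 and 69 per plate, 44 and 77 with the plate as a block, and 164 and 98 without the female plate. For SLC 351 and 49 became 579 and 329 with DESeq2, 942 and 120 without the filter, 95 and 31 per plate, 99 and 52 with the plate as a block, and 556 and 62 without the female plate. For fibroblasts 181 and 509 became 646 and 961 with DESeq2, 277 and 751 without the filter, 25 and 78 per plate, 41 and 133 with the plate as a block, and 42 and 275 without the female plate. DESeq2 scaling moved the median of all genes from 0.32 to 0.03 in the arterial comparison and from -0.18 to 0.02 for fibroblasts. For the classes 2277 and 561 became 2713 and 1579 with DESeq2, 3580 and 1181 without the filter and 1356 and 236 with the plate as a block, and *Pln* did not pass the filter on plate sums there.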

Other observations

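Summed over endothelial cells, *Smtn* rested on a minority of the cells in most sets. In the male and female pool *Smtn* was at 234 and 133 CPM in cells annotated as central vein, 146 and 172 CPM in sinusoidal cells, 195 and 231 CPM in cells of the last sinusoid segment, and 4.18 and 87.0 CPM in portal vein cells. At least 20 counts were in 34 of 159 and 21 of 143 central vein cells, 90 of 385 and 38 of 157 sinusoidal cells, 13 of 34 and 22 of 78 cells of the last sinusoid segment, and 1 of 63 and 7 of 51 portal vein cells, and the median cell of these sets held at most 10.6 CPM. Lymphatic endothelial cells (9 and 13 cells) held 180 and 566 CPM, with medians over cells of 13.7 and 339 CPM. Cells of the peribiliary vasculature (5 and 9 cells) held 454 and 474 CPM, with medians of 43.5 and 0 CPM and a count of *Smtn* in 3 cells of each pool. *Smtn* was counted in 48.7% of male and 56.8% of female endothelial cells, against 21.5% and 35.9% of parenchymal cells. *Mylk* was at 103 and 202 CPM in lymphatic endothelial cells, with medians over cells of 36.7 and 0 CPM. In cholangiocytes it was at 70.7 and 208 CPM, with medians of 2.11 and 38.9 CPM.

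Single cells outside the mesenchyme held high levels. A male cell annotated as lymphatic endothelial had 1215 counts of *Acta2* (11660 CPM) and 9 of the 10 genes, with 1 count of *Pdgfrb*. A female cholangiocyte had 9101 CPM of *Acta2* and a male hepatocyte 6683 CPM, each with all 10 genes, and 14 and 83 counts of *Pdgfrb*. The male lymphatic pool level of *Acta2*, 758 CPM, came from that 1 cell of 9. Cells annotated as *Wt1* fibroblasts held 197 and 607 CPM of *Acta2*.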
